A study of Mus musculus with 2 samples.

Results

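Rab GTPases, the largest branch of the Ras superfamily, were examined at the level of messenger RNA in RAW264.7 cells, a macrophage line from a mouse tumour that Abelson murine leukaemia virus induced. The family was taken as every protein-coding gene whose symbol is Rab followed by a number and at most a letter and a digit, which leaves out binding partners such as the Rab11 family interacting proteins. This rule found 59 genes among the 52550 gene identifiers counted. The study has 2 RNA-seq libraries, 1 from untreated cells grown in 3D culture and 1 from untreated cells grown in 2D culture, and the comparison asks how the transcriptome differs with the way of culture. No further detail of the 3D culture is given in the sources used here.

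A Rab protein switches between a GTP-bound form on a membrane and a GDP-bound form that a dissociation inhibitor keeps in solution. Exchange factors (GEFs) load GTP, GTPase-activating proteins (GAPs) end the active state, and the active form recruits effectors such as tethers, motors and coiled-coil proteins. Each Rab marks a compartment, so the set of Rabs gives a membrane its identity. In macrophages the passage from Rab5 to Rab7 accompanies the maturation of endosomes and phagosomes into degradative compartments, and Rab11 returns receptors to the surface.

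The 3D library held 16652503 counts and the 2D library 14371084. Macrophage identity was checked with 10 markers, which were all measured and together reached 9495 counts per 1000000 after TMM scaling (CPM) in 3D culture and 3279 in 2D culture. Lyz2, Cd68, Csf1r and Cd14 carried most of this sum, and 3 of the 10 were lower in 3D culture, namely Ptprc at 49.6 CPM in 3D and 135 CPM in 2D culture, Itgam at 16 CPM in 3D and 21.9 CPM in 2D culture, and Fcgr1 at 5.32 CPM in 3D and 7.75 CPM in 2D culture. Of 6 hepatocyte markers 2, Alb and Ahsg, were measured. All 6 together reached 22.9 CPM in 3D culture and 0.565 in 2D culture, and Serpina1c was at 0 in both. Alb made up most of the sum, at 17.1 CPM in 3D culture and 0.452 in 2D culture. The part of this difference in the results below was not tested. No marker of fibroblasts, epithelium, lymphocytes or neurons was measured, and of 4 endothelial markers 1 was. Each way of culture has 1 library, so differences lack a replicate check, and p-values are left out. The 95% exact intervals cover counting error alone, with no spread between cultures. Fewer cells that carry a transcript and less transcript per cell cannot be told apart in such libraries.

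Of the 59 Rab genes, 40 were measured, meaning a mean of at least 1 CPM over both libraries. A further 11 had counts in at least 1 library but lay under this limit, and 8 had 0 counts in both. The 11 were Rab4b, Rab17, Rab25, Rab30, Rab33a, Rab37, Rab39, Rab39b, Rab40b, Rab42 and Rab44, with at most 10 counts in 3D culture and at most 18 in 2D culture. The genes at 0 were Rab3b, Rab3c, Rab6b, Rab9b, Rab26, Rab27b, Rab36 and Rab38. Rab3b, Rab3c and Rab6b are known from neurons and secretory cells, and Rab38 from melanosome-forming cells. A count of 0 allows up to 3 counts, or a level of 0.18 counts per 1000000 total counts in 3D culture and 0.209 in 2D culture. Rab25 and Rab17, which act in epithelial cells, had 8 and 3 counts in 3D culture, against 2 and 1 counts in 2D culture. Epithelial markers summed to 0.517 CPM in 3D culture and 0.283 in 2D culture, and their part in these few counts was not tested.

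Levels of different genes were compared per kilobase of merged exon length. Rab5c, an early endosome Rab, stood highest in 3D culture at 142 CPM per kilobase and came after Rab7 in 2D culture, at 73.2. Rab1b, which works between the endoplasmic reticulum and the Golgi, followed in 3D culture at 107 CPM per kilobase, against 42.8 in 2D culture. Rab7, the main Rab of late endosomes and lysosomes, led in 2D culture at 89.0 CPM per kilobase and stood at 75.4 in 3D culture. At the low end, Rab2b stood at 0.266 CPM per kilobase in 3D culture and 0.299 in 2D culture. The order of levels was much alike in both libraries, with a Spearman correlation of 0.93 over the 40 genes, which is a description over genes that share the same 2 libraries. The 5 most abundant Rab genes by count held 39.4% of the family's counts in 3D culture and 39.6% in 2D culture.

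**Figure D1:**
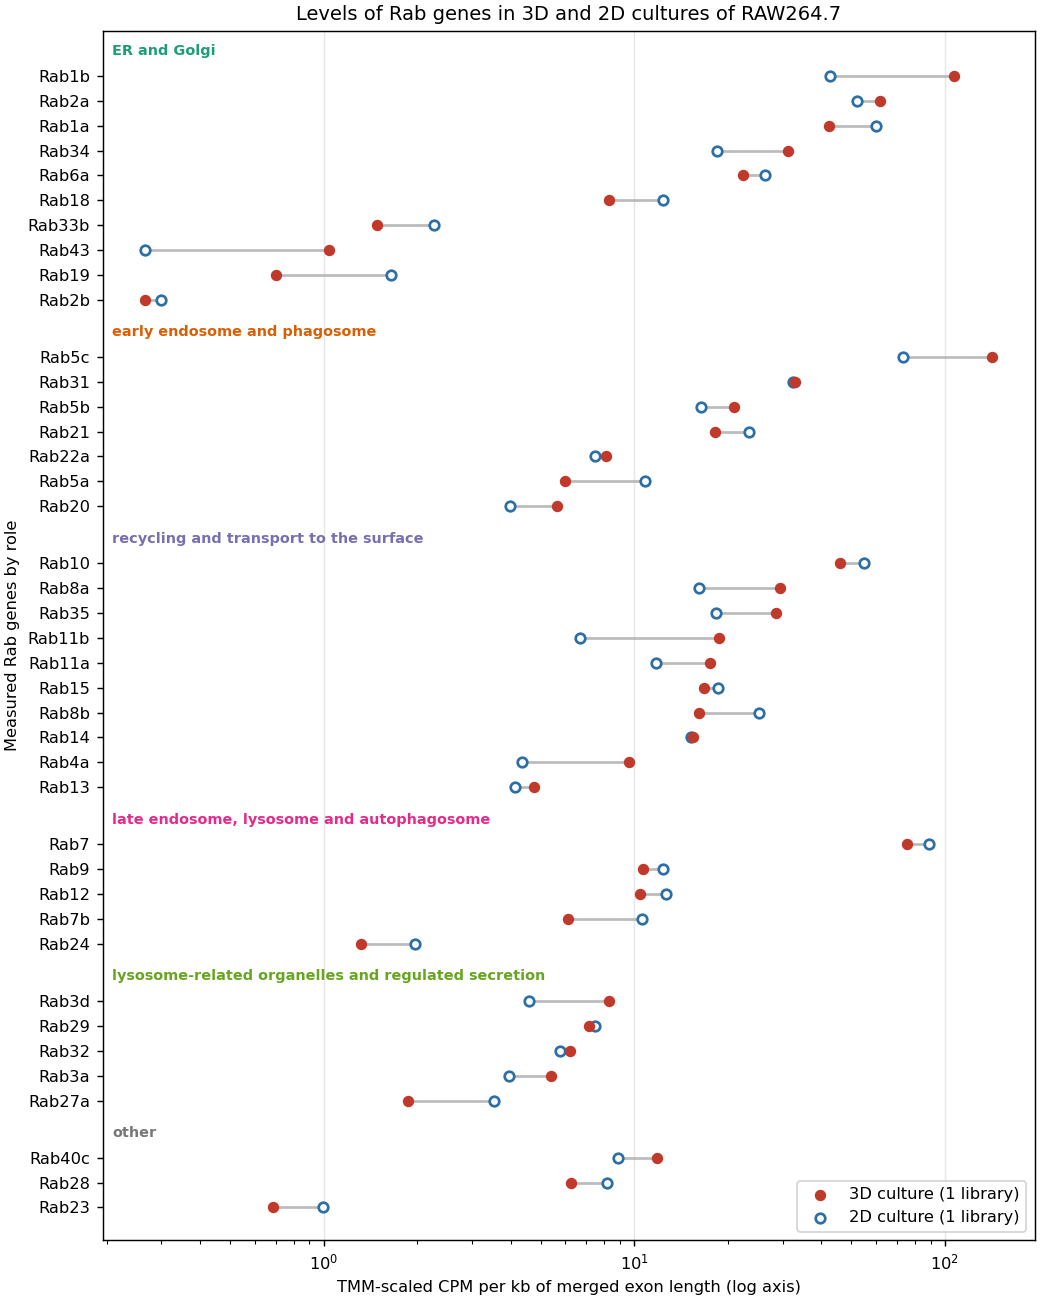
Levels of the 40 measured Rab genes, as TMM-scaled CPM per kilobase of merged exon length on a log axis, grouped by role. Filled points are the 3D library and open points the 2D library, 1 library each; Rab5c, Rab1b and Rab7 stand at the top, and the longest lines, between the points of a gene, are those of Rab43, Rab11b and Rab1b.

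Most Rab transcripts differed by less than 2-fold between the cultures. Among the 40 measured, 4 were at least 2-fold higher in 3D culture, namely Rab43, Rab11b, Rab1b and Rab4a, and 1, Rab19, was at least 2-fold lower. Over all 11673 measured genes 18.7% had a ratio of 2 or more and 20.8% were lower by 2-fold or more, close to the 18.2% and 19% of protein-coding genes, so 39.5% passed in either direction, against 12.5% of the Rab genes. The middle of the family was also narrower. The interquartile range of the log2 ratio was 0.93 for the Rab genes and 1.60 for all measured genes, and the medians were -0.02 and 0.05. After the adjustment for GC content, exon length and mean level given below, the ranges lay closer together, at 0.81 and 0.98. The Rab genes had a median mean level of 44.1 CPM, against 30.6 CPM for all measured genes, and a GC content whose interquartile range was 9.25 percentage points, against 9.49. At a threshold of 1.5-fold, 9 Rab genes were higher and 6 lower, or 22.5% and 15%, against 31.7% and 30.4% of all measured genes. At 4-fold 0 passed either way, against 2.23% and 6.67%. The counting interval lay above 1 for 15 of the 40 Rab genes and below 1 for 16. These shares are near those of all measured genes, of which 43.3% had an interval above 1 and 39.9% below 1.

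The split between higher and lower genes depends on the scaling. Under total counts every log2 ratio is 0.60 lower, which moves the median of all genes to -0.56, and scaling to 21 reference genes moves it to -0.55. Either way 1 Rab gene, Rab43, stayed at least 2-fold higher, while 10 were lower by that much, in place of 4 and 1. Of the 20 Rab genes with a ratio above 1, 9 kept it under both scalings, namely Rab1b, Rab3d, Rab4a, Rab5c, Rab8a, Rab11b, Rab34, Rab35 and Rab43. The other 11, Rab2a, Rab3a, Rab5b, Rab11a, Rab13, Rab14, Rab20, Rab22a, Rab31, Rab32 and Rab40c, lay above 1 under TMM scaling and below 1 under total counts. The split over all genes moved alike under total counts, where 5.59% were at least 2-fold higher and 36.5% lower. As a share of all counts, the family held 0.232% of the 3D library (95% Wilson interval 0.229% to 0.234%) and 0.317% of the 2D library (0.314% to 0.320%). Folds are given under TMM scaling, and shares within the family or a subfamily do not depend on the scaling.

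**Figure D2:**
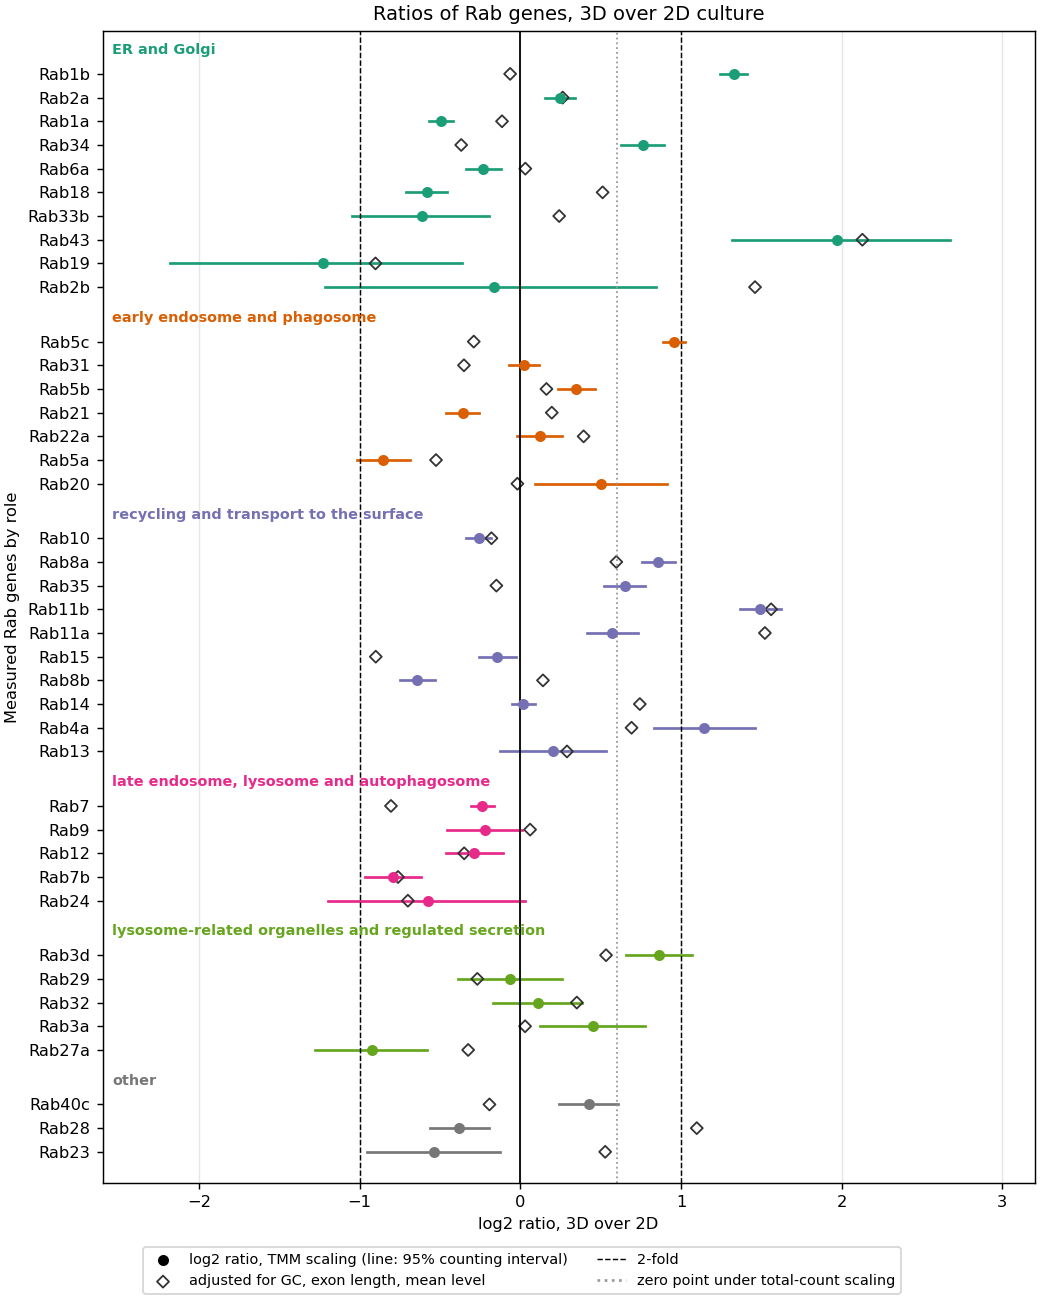
Log2 ratio of the 3D over the 2D library for the 40 measured Rab genes by role, with 95% counting intervals as lines and values corrected for GC content, exon length and mean level as open diamonds. Dashed lines mark 2-fold and the dotted line the point that becomes 0 under total counts; 4 filled points lie beyond 2-fold on the right and 1 on the left, and the 5 late endosome genes all lie left of 0.

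The ratio was also set beside transcript composition. Over the 40 measured Rab genes the log2 ratio correlated with the GC content of the longest transcript at a Pearson r of 0.51 and a Spearman rho of 0.51, against 0.58 and 0.62 over 10538 protein-coding genes. These are descriptions over genes of the same 2 libraries. Of 14 Rab genes with a GC content of 50% or more, 10 had a ratio above 1, whereas of 11 under 45% 3 did. These are 71.4% and 27.3%, against 77.9% and 16.4% of protein-coding genes in the same ranges. The log2 ratio was therefore also adjusted over all measured genes for the GC content, the exon length and the mean level of a gene, a step that takes out biological as well as technical differences tied to them. After adjustment 5 Rab genes, Rab43, Rab11b, Rab11a, Rab2b and Rab28, were at least 2-fold higher and 0 were lower, that is 12.5% and 0%, against 11.7% and 8.73% of all measured genes. Among these 5, Rab2b had only 15 counts in 3D and 22 in 2D culture, with an interval before adjustment of 0.430 to 1.80. Of the 4 genes that were at least 2-fold higher before adjustment, Rab11b and Rab43 stayed so. The sign of the log2 ratio turned for 16 of the 40. Some of these ended near 0, such as Rab20 at -0.02, Rab6a at 0.03, Rab9 at 0.06 and Rab1b at -0.06. The median adjusted log2 ratio of all measured genes was 0.075. The share of all genes whose sign turned was not computed, so the 16 cannot be called particular to the Rab genes. Rab1b, Rab5c, Rab20, Rab31, Rab34, Rab35 and Rab40c were above 0 before adjustment and below 0 after it. Rab2b, Rab6a, Rab8b, Rab9, Rab18, Rab21, Rab23, Rab28 and Rab33b were below 0 before adjustment and above 0 after it.

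**Figure D3:**
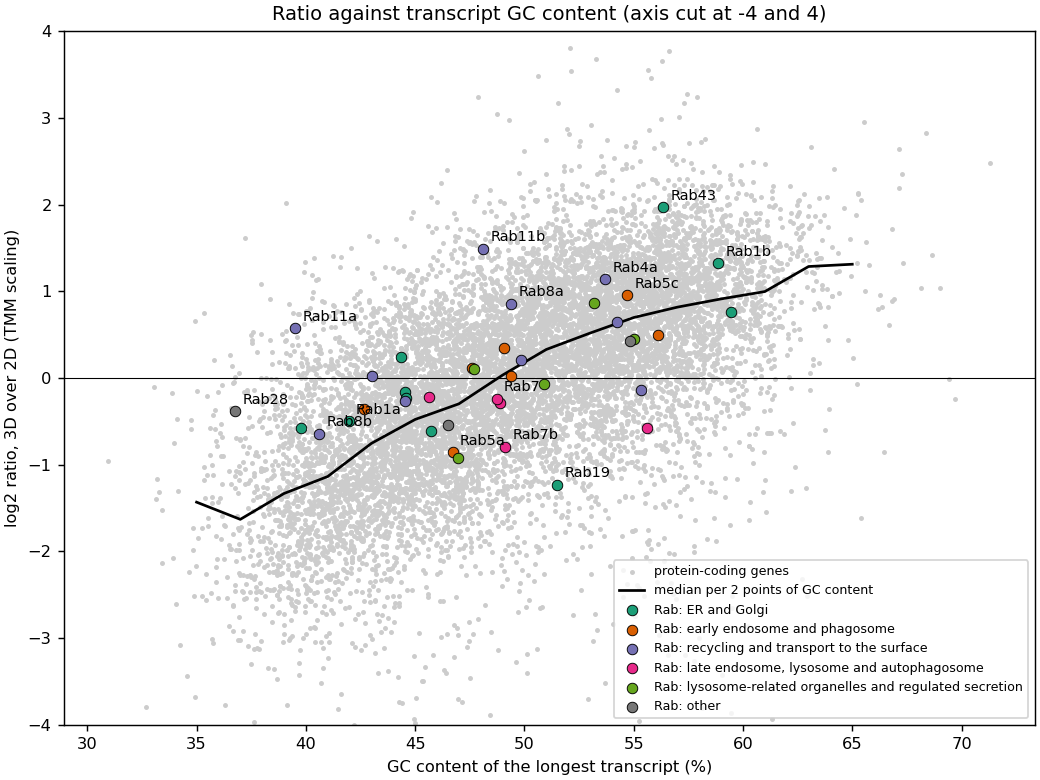
Log2 ratio of the 3D over the 2D library against the GC content of the longest transcript, in percent, for protein-coding genes (grey), with their median in windows of 2 percentage points (line), and for the measured Rab genes coloured by role. Rab11a and Rab11b lie well above the line at their GC content, Rab1b lies close to it, and Rab19 and Rab7b lie below it.

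Rabs of the endoplasmic reticulum and Golgi held the widest range. Of 16 genes 10 were measured, with 2 at least 2-fold higher and 1 lower, and a median log2 ratio of -0.20. Rab1b (ENSMUSG00000024870, mm10 chr19:5099205-5107072, minus strand), which directs vesicles from the endoplasmic reticulum to the Golgi, had 3299 counts or 244 CPM in 3D culture, against 1718 counts or 97.1 CPM in 2D culture. It was thus 2.51-fold higher in 3D culture (95% interval 2.37 to 2.66). Its transcript has a GC content of 58.9%, and its adjusted log2 ratio was -0.06. Rab1a, its close paralogue in the same step, had a ratio on the other side of 1, with 161 CPM in 3D culture and 227 in 2D culture, which is 1.41-fold lower (1.34 to 1.48).

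Rab43 (ENSMUSG00000030055, chr6:87788853-87812164, minus strand), a Golgi Rab, had the highest ratio among the measured Rab genes but low counts. It had 78 counts in 3D culture and 26 in 2D culture, or 5.76 CPM in 3D and 1.47 CPM in 2D culture, a 3.92-fold difference (2.49 to 6.37), and 2.13 on the adjusted log2 scale. Its exons share 4164 bases with another annotated gene on the same strand, Gm45140, which had 0 counts in both libraries. Rab19 (ENSMUSG00000029923, chr6:39381175-39390380, plus strand) had 15 counts or 1.11 CPM in 3D culture, against 46 counts or 2.60 CPM in 2D culture. This is 2.35-fold lower, with a wide interval of 1.29 to 4.52, and the adjusted log2 ratio was -0.90.

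The other measured genes of this group lay within 2-fold. Rab34, which is tied to the Golgi and to lysosome positioning, stood at 74.5 CPM in 3D culture and 44.0 in 2D culture, 1.69-fold higher (1.54 to 1.86), but at -0.37 on the adjusted log2 scale. Rab2a, which works at the intermediate compartment and in delivery to lysosomes, was near equal at 132 CPM in 3D culture and 111 in 2D culture. Rab6a, a Golgi Rab of retrograde and secretory carriers, stood at 83.6 CPM in 3D and 98.2 CPM in 2D culture, and shares exon bases with Mrpl48 on the opposite strand. Rab18, found at the endoplasmic reticulum and lipid droplets, was 1.5-fold lower (1.37 to 1.64), at 56.6 CPM in 3D culture and 84.8 in 2D culture. Its adjusted log2 ratio was 0.51, of the opposite sign. Rab33b, which binds the autophagy factor Atg16l1, was 1.53-fold lower (1.14 to 2.06), but at 0.24 on the adjusted log2 scale. Rab2b had 15 counts in 3D and 22 in 2D culture, an interval that holds 1, and its opposite strand carries other annotated exons. On the adjusted log2 scale Rab2b stood at 1.46.

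All 7 Rabs of early endosomes and phagosomes were measured, and 0 passed 2-fold, with ratios that ran from 1.81-fold lower to 1.94-fold higher. The Rab5 paralogues, which control early endosome fusion, spread across that whole range. Rab5c (ENSMUSG00000019173, chr11:100715009-100738215, minus strand) lay just short of 2-fold, at 311 CPM in 3D culture and 161 in 2D culture, 1.94-fold higher (1.85 to 2.03). Rab5b stood at 87.9 CPM in 3D culture and 69.0 in 2D culture, 1.27-fold higher (1.17 to 1.38). Rab5a (ENSMUSG00000017831, chr17:53479234-53507680, plus strand) stood at 31.6 CPM in 3D and 57.1 CPM in 2D culture, 1.81-fold lower (1.61 to 2.03). Adjusted log2 ratios were -0.29 for Rab5c, 0.16 for Rab5b and -0.53 for Rab5a, so Rab5c turned sign.

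Among the other early endosome Rabs, Rab31 and Rab22a had intervals that hold 1. Rab31, which also works between the Golgi and endosomes, stood at 126 CPM in 3D culture and 124 in 2D culture, and Rab22a at 58.5 CPM in 3D and 53.9 CPM in 2D culture. Rab21, a regulator of integrin traffic, was 1.28-fold lower (1.20 to 1.38). Rab20, which associates with maturing phagosomes in macrophages, had 106 counts in 3D culture and 98 in 2D culture, 1.41-fold higher under TMM scaling (1.06 to 1.88) but below 1, at 0.933, under total counts.

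Rabs of recycling and of transport to the surface had the highest median of the role groups, at a log2 ratio of 0.39 under TMM scaling, which is smaller than the 0.60 by which total counts lower every value and so lies below 0 there. Of 13 genes 10 were measured, 2 of them at least 2-fold higher and 0 lower. Rab11b (ENSMUSG00000077450, chr17:33742484-33760530, minus strand), a Rab of the recycling endosome, had 1557 counts in 3D culture and 723 in 2D culture, or 115 CPM in 3D and 40.9 CPM in 2D culture. It was 2.81-fold higher (2.58 to 3.08). Rab11a, the better known paralogue at the same compartment, stood at 52.3 CPM in 3D culture and 35.2 in 2D culture, 1.49-fold higher (1.33 to 1.66). Adjusted log2 ratios of the pair were 1.56 for Rab11b and 1.52 for Rab11a, which were among the higher ones in the family. Under total counts Rab11b was 1.86-fold higher and Rab11a was near equal at a ratio of 0.982. The processed pseudogene Rab11b-ps2 had 182 counts in 3D culture and 88 in 2D culture, so reads of Rab11b could be shared with it.

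Rab4a (ENSMUSG00000019478, chr8:123805985-123835287, plus strand), which serves fast recycling from early endosomes, stood at 16.8 CPM in 3D culture and 7.63 in 2D culture. It was 2.21-fold higher (1.78 to 2.75), an interval that reaches below 2, and its adjusted log2 ratio was 0.69. Its paralogue Rab4b was not measured, with 1 count in 3D culture and 18 in 2D culture, and shares 1280 bases of exon with Gm21983 on the same strand. Rab8a, which acts in traffic to the plasma membrane and to cilia, stood at 137 CPM in 3D and 75.7 CPM in 2D culture, 1.81-fold higher (1.69 to 1.95), while Rab8b stood at 76.6 CPM in 3D and 119 CPM in 2D culture, 1.56-fold lower (1.45 to 1.68). On the adjusted log2 scale Rab8a was at 0.60 and Rab8b at 0.14. Rab35, a Rab of recycling and phagocytic membranes, was 1.57-fold higher (1.43 to 1.71), but at -0.15 on the adjusted log2 scale.

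The remaining surface-directed Rabs lay within 1.5-fold. Rab14, which acts between the Golgi and early endosomes, stood at 210 CPM in 3D culture and 207 in 2D culture, and its interval of 0.965 to 1.06 held 1. Rab10, which supports Toll-like receptor 4 traffic in macrophages, stood at 161 CPM in 3D and 193 CPM in 2D culture, 1.20-fold lower (1.14 to 1.26), and an antisense gene, Rab10os, shares exon bases with it. Rab15 stood at 77.4 CPM in 3D and 85.5 CPM in 2D culture and, with a GC content of 55.3%, had one of the lower adjusted log2 ratios of the family, at -0.90. Rab13, a Rab of cell junctions, had an interval that held 1.

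Of 6 late endosome, lysosome and autophagosome Rabs 5 were measured. All 5 had a ratio below 1, their median log2 ratio was -0.29, and the interval lay below 1 for 3 of them. Over all measured genes 48.2% had a ratio below 1 and 39.9% an interval below 1. At 1.5-fold only Rab7b passed. Rab7 (ENSMUSG00000079477, chr6:87999106-88045270, minus strand), which drives fusion of late endosomes and autophagosomes with lysosomes, had 2664 counts in 3D culture and 4106 in 2D culture. It stood at 197 CPM in 3D and 232 CPM in 2D culture, 1.18-fold lower (1.12 to 1.24). Its processed pseudogene Rab7-ps1 had 41 counts in 3D culture and 70 in 2D culture, and reads could be shared between them. Rab7b, a myeloid Rab that limits Toll-like receptor signalling, stood at 28.4 CPM in 3D culture and 49.1 in 2D culture, 1.73-fold lower (1.53 to 1.96).

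Rab12 and Rab9 lay closer to 1. Rab12, which takes receptors to lysosomes, was 1.22-fold lower (1.08 to 1.38), and Rab9, which returns mannose 6-phosphate receptors from late endosomes to the Golgi, stood at 18.6 CPM in 3D culture and 21.7 in 2D culture. Rab24, an autophagy-related Rab, had 36 counts in 3D culture and 70 in 2D culture, and shares 1258 bases of exon with Prelid1 on the opposite strand, so its counts are open to doubt. On adjustment the log2 ratios were -0.81 for Rab7, -0.76 for Rab7b, -0.70 for Rab24, -0.35 for Rab12 and 0.06 for Rab9, with a median of -0.70. Within the family, these late Rabs held 9.76% of all Rab counts in 3D culture (Wilson interval 9.47% to 10.1%) and 13.4% in 2D culture (13.1% to 13.7%). The early endosome Rabs held 25.1% of them in 3D and 22.8% in 2D culture, and the recycling Rabs 33.0% in 3D and 32.1% in 2D culture.

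Of 12 Rabs of lysosome-related organelles and regulated secretion 5 were measured, and 0 passed 2-fold. Rab27a, which docks secretory lysosomes and exosome-forming bodies at the membrane, lay just short of 2-fold at 7.24 CPM in 3D culture and 13.7 in 2D culture, 1.90-fold lower (1.49 to 2.42), and -0.33 on the adjusted log2 scale. Rab3d, a Rab of secretory granules, stood at 34.9 CPM in 3D and 19.2 CPM in 2D culture, 1.81-fold higher (1.57 to 2.09), and Rab3a, its neuronal relative, at 12 CPM in 3D and 8.82 CPM in 2D culture, 1.37-fold higher (1.09 to 1.71). Rab32, which acts in host defence against intracellular bacteria and in melanosome biogenesis, stood at 14.6 CPM in 3D culture and 13.5 in 2D culture, with an interval that held 1. Rab29, a relative of Rab32 that recruits the kinase Lrrk2, stood at 10.5 CPM in 3D and 11 CPM in 2D culture, also with an interval that held 1.

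Of the 5 genes without one of these roles, 3 were measured. Rab28, which has a part in photoreceptor cilia, stood at 28.4 CPM in 3D culture and 36.9 in 2D culture, 1.30-fold lower (1.15 to 1.48). At a GC content of 36.8%, the lowest among measured Rab genes, its adjusted log2 ratio was 1.10. Rab23, an antagonist of Hedgehog signalling, was 1.45-fold lower (1.09 to 1.94), and Rab40c, which joins a ubiquitin ligase, was 1.34-fold higher (1.18 to 1.52). Both turned sign on adjustment, with log2 ratios of 0.53 for Rab23 and -0.19 for Rab40c.

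Close paralogues of a subfamily differed in their shares, and this comparison, chosen after the values were seen, is free of the scaling between libraries. Of 7 subfamilies with at least 2 measured members, which form 9 pairs, the counting intervals of the ratios lay apart in 7 pairs. Pairs within Rab5 share members. Other pairs of genes were not compared in this way, so the 7 of 9 cannot be called particular to paralogues. For single genes, 43.3% of all measured ones had an interval above 1 and 39.9% below 1. Rab1b made up 60.2% of Rab1 counts in 3D culture (Wilson interval 58.9% to 61.5%) and 30.0% in 2D culture (28.8% to 31.1%), so the leading paralogue differed between the cultures. Rab8a likewise led in 3D culture, with 64.2% of Rab8 counts (62.4% to 65.9%), and came behind Rab8b in 2D culture, with 38.8% (37.2% to 40.4%). Rab5c held 72.3% of Rab5 counts in 3D culture and 56.0% in 2D culture, while Rab5a held 7.34% in 3D and 19.9% in 2D culture. Rab11b held 68.7% of Rab11 counts in 3D and 53.8% in 2D culture. These shares are not corrected for exon length. Per kilobase, Rab11b stood at 18.8 CPM in 3D and 6.67 CPM in 2D culture, and Rab11a at 17.5 CPM in 3D and 11.8 CPM in 2D culture. By that measure Rab11a led in 2D culture. Rab7b held 12.6% of the counts of Rab7 and Rab7b together in 3D and 17.5% in 2D culture. For Rab2 and Rab3 the intervals of the paralogues overlapped.

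The paralogues also differ in composition. In 6 of the 9 pairs the member with the higher ratio had the higher GC content, by 16.9 percentage points for Rab1b over Rab1a and 8.80 for Rab8a over Rab8b. Before adjustment 4 pairs were at least 2-fold apart, with a ratio of ratios of 3.53 for Rab1b over Rab1a, 3.50 for Rab5c over Rab5a, 2.83 for Rab8a over Rab8b and 2.30 for Rab5b over Rab5a. After adjustment these values became 1.04, 1.18, 1.37 and 1.61. After it 1 other pair was at least 2-fold apart, Rab2a over Rab2b, at a ratio of ratios of 0.436, against 1.33 before adjustment, so the order of that pair turned; Rab2b has few counts. The part of composition in the shares was not tested.

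**Figure D4:**
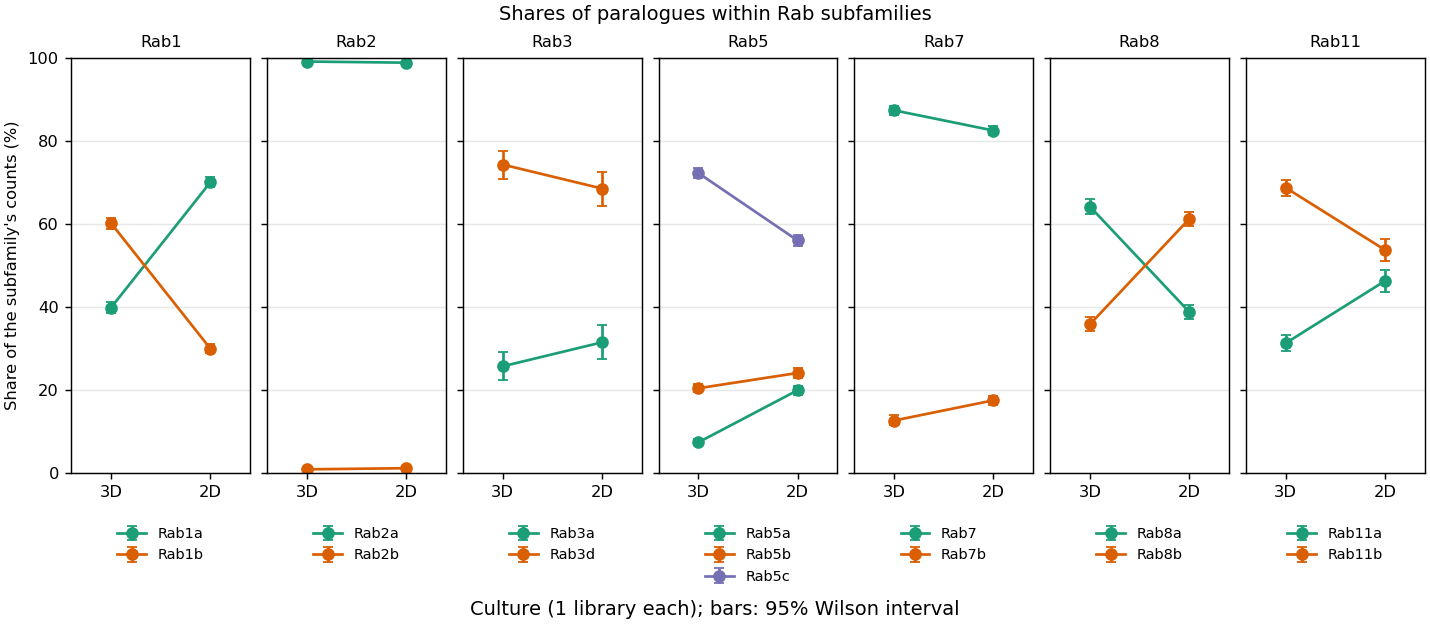
Share of each paralogue in the counts of its subfamily, in percent, for 3D culture (left) and 2D culture (right) in each panel, with 95% Wilson intervals as bars. The lines of Rab1a and Rab1b cross, as do those of Rab8a and Rab8b, while Rab2a stays near 99% in both libraries.

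Promoter windows of 300 bases, 250 before to 50 after the gene start, came from RefSeq on GRCm38.p6. Of the 40 measured Rab genes, 36 had at least 1 window, in 48 windows with a median GC content of 62.3%, against 52.7% over 32851 windows of all genes. The palindrome TCACGTGA, the core of the element through which lysosomal genes are known to be switched on together, occurred in 3 Rab windows (6.25%), against 0.974% of all windows, and those of Rab5a, Rab21 and Rab24 hold it. These genes had ratios below 1 before adjustment, at 0.554, 0.779 and 0.672, with adjusted log2 ratios of -0.53, 0.20 and -0.70. The shorter E-box CACGTG, which lies inside that palindrome, was in 12.5% of Rab windows and 7.15% of all, and the core ACGTG, which overlaps both, in 22.9% and 19.6%. The NRF2 motif TGACNNNGC was in 14.6% and 12.4%, and the TATA box TATAAA in 2.08% and 13.6%. Both strands were searched, and a match describes letters only. The windows that hold TCACGTGA are shown because the motif is rare, with its letters in capitals, each 5′ to 3′ along the gene. That of Rab5a is chr17:53478984-53479283 on the plus strand, that of Rab21 chr10:115315542-115315841 on the minus strand, and that of Rab24 chr13:55321931-55322230 on the minus strand.
Rab5a: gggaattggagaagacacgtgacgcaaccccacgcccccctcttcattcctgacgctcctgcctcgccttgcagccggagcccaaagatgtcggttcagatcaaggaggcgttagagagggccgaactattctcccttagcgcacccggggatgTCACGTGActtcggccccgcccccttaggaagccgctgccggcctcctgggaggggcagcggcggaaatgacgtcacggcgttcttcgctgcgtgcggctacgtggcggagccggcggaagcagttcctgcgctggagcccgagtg
Rab21: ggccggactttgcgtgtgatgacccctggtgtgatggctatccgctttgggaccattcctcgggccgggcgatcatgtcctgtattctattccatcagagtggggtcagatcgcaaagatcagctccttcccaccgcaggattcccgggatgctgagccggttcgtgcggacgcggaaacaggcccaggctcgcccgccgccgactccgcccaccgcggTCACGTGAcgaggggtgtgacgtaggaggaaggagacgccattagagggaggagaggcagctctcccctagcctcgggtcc
Rab24: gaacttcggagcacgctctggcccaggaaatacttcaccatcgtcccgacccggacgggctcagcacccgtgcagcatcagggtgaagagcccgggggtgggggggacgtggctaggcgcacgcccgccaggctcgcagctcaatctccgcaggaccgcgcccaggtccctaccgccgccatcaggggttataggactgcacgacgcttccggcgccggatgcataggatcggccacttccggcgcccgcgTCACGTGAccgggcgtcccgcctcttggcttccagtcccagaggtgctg
The motif starts 96 bases before the gene start in Rab5a, 31 bases before it in Rab21, and at base 2 of the gene in Rab24. For the subfamily with the largest shift in shares, the windows of both paralogues follow, in lower case because no searched motif was found in either. Rab1b is at chr19:5106947-5107246 on the minus strand with a GC content of 63.3%, and Rab1a at chr11:20201162-20201461 on the plus strand with 70.3%, the reverse of the order of their transcripts, at 58.9% and 42.0%.
Rab1b: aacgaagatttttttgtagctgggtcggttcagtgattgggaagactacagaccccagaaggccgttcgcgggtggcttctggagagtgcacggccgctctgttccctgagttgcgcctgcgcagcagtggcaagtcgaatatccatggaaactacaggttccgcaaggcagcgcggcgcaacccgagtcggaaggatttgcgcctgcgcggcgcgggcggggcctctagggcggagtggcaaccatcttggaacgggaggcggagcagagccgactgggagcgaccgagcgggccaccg
Rab1a: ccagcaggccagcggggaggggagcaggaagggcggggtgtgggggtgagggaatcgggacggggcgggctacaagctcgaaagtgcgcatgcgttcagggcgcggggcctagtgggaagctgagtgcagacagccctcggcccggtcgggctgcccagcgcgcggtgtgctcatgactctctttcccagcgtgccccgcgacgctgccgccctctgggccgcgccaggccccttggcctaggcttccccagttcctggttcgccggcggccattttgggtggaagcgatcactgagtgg

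Genes for proteins that prenylate Rabs and carry them to and from membranes lay on both sides of 1. All 14 listed genes were measured, 4 (28.6%) at least 2-fold higher in 3D culture and 2 (14.3%) lower. Over all measured genes these shares were 18.7% and 20.8%. Rabac1, the prenylated Rab acceptor, stood at 283 CPM in 3D culture and 60.3 in 2D culture, 4.70-fold higher (4.39 to 5.04), and 0.66 on the adjusted log2 scale. The Golgi membrane proteins Yipf3 and Yipf1 were 3.37-fold and 3.30-fold higher, and 0.64 and 2.12 on the adjusted log2 scale. Both genes for Rab escort proteins, which present new Rabs to the prenyl transferase, were lower. Chml stood at 3.25 CPM in 3D culture and 23.7 in 2D culture, 7.30-fold lower (5.35 to 10.2), and -1.37 on the adjusted log2 scale; Chml shares exon bases with Opn3 on the same strand. Chm stood at 10.9 CPM in 3D and 35.7 CPM in 2D culture, 3.29-fold lower (2.74 to 3.96), but its adjusted log2 ratio was -0.03.

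The subunits of the transferase also lay on both sides of 1. Rabggta, its alpha subunit, was 2.32-fold higher (2.10 to 2.56), and Rabggtb, its beta subunit, was 1.54-fold lower (1.36 to 1.74), and 0.48 and -0.23 on the adjusted log2 scale. Gdi2, a GDP dissociation inhibitor that draws Rabs off membranes, stood at 831 CPM in 3D culture and 473 in 2D culture, 1.76-fold higher (1.71 to 1.81).

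Of 47 genes for exchange factors 45 were measured, 7 (15.6%) at least 2-fold higher and 6 (13.3%) lower. Trappc9, Trappc2l, Trappc4 and Trappc12, subunits of the TRAPP complexes that activate Rab1 and Rab11, were among the higher ones, and the other 7 measured TRAPP genes lay within 2-fold. Trappc9 stood at 113 CPM in 3D culture and 29.2 in 2D culture, 3.85-fold higher (3.48 to 4.26), and 1.45 on the adjusted log2 scale. Trappc2l was 2.60-fold and Trappc4 2.32-fold higher, and 0.53 and 0.84 on the adjusted log2 scale; Trappc4 shares exon bases with Rps25 on the opposite strand. Rin3, an exchange factor for Rab5 and Rab31, was 2.54-fold higher (2.35 to 2.74), and 0.47 on the adjusted log2 scale. Of the listed Dennd genes, which hold a DENN domain, 5 were at least 2-fold lower and 1, Dennd2a, 2.06-fold higher (1.89 to 2.24). The other measured ones, Dennd1a, Dennd1c, Dennd2c, Dennd3, Dennd4b, Dennd4c and Dennd5a, lay within 2-fold. Over all measured genes 20.8% were at least 2-fold lower and 18.7% higher. Dennd1a was 1.42-fold higher (1.26 to 1.59), and 2.29 on the adjusted log2 scale. Dennd4a, an exchange factor for Rab10, was 3.60-fold lower (3.27 to 3.96) and Dennd6b 2.80-fold lower, and -0.90 and -1.58 on the adjusted log2 scale. Dennd1b, which acts on Rab35, was 2.61-fold lower and Dennd6a, which acts on Rab14, 2.20-fold lower, and both turned sign after adjustment, at 0.18 and 0.06. The last of the 5, Dennd2d, was 2.02-fold lower, and -0.27 on the adjusted log2 scale. For the Rab7 exchange factor, Mon1a was 2.40-fold higher (1.95 to 2.97), Mon1b 1.38-fold lower (1.17 to 1.63) and Ccz1 near equal at 0.941.

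Of 36 genes for GTPase-activating proteins 34 were measured, 6 (17.6%) at least 2-fold higher and 6 (17.6%) lower, against 18.7% and 20.8% of all measured genes. Tbc1d17 was 3.16-fold higher (2.83 to 3.53), but shares exon bases with genes on the opposite strand. Tbc1d10b was 2.71-fold higher, Tbc1d2, which acts on Rab7, 2.15-fold and Tbc1d22a 2.09-fold. Tbc1d31 was 3.85-fold lower (3.34 to 4.45), Evi5, which binds Rab11, 3.19-fold, Tbc1d8b 2.62-fold and Tbc1d23, a golgin-binding protein at the trans-Golgi, 2.24-fold. Of these 8 genes, those beyond 2-fold on the adjusted log2 scale were Tbc1d17 and Tbc1d31, at 1.25 and -1.17.

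Of 60 effector genes 46 were measured, 7 (15.2%) at least 2-fold higher and 9 (19.6%) lower, against 18.7% and 20.8% of all measured genes. Effectors of Rab5 were on both sides of 1. The tether Eea1 stood at 58.5 CPM in 3D culture and 184 in 2D culture, 3.15-fold lower (2.91 to 3.40), and -0.79 on the adjusted log2 scale. Rabep1, which encodes rabaptin-5, stood at 79.1 CPM in 3D and 274 CPM in 2D culture, 3.47-fold lower (3.25 to 3.71), and -1.32 on the adjusted log2 scale. Its relative Rabep2 was 1.69-fold higher (1.43 to 2.00). Of the effectors of Rab11, Rab11fip5 was 2.67-fold higher (2.42 to 2.95) and Rab11fip2 3.97-fold lower (2.90 to 5.53), and 0.65 and -0.47 on the adjusted log2 scale. Rab11fip1, Rab11fip3 and Rab11fip4 lay within 2-fold, at ratios of 0.945, 1.01 and 0.620.

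For Rab7, the dynein adaptor gene Rilp had 41 counts in 3D culture and 12 in 2D culture, 4.47-fold higher (2.30 to 9.33), and 2.00 on the adjusted log2 scale. Vps18, a core subunit of the tethers CORVET and HOPS, was 2.87-fold higher (2.67 to 3.08). Vps39 and Vps41, which are specific to HOPS, were 1.37-fold higher (1.30 to 1.44) and near equal at 1.07. Of the other listed subunits of these tethers, Vps8 was 2.47-fold higher (2.26 to 2.71) and Vps11 2.12-fold (2.00 to 2.24). Vps33a, Vps16 and Tgfbrap1 lay within 2-fold, at ratios of 1.83, 1.39 and 1.26. Adjusted log2 ratios were 0.51 for Vps18, 1.26 for Vps8 and 0.38 for Vps11. The trans-Golgi golgin Gcc2 was 5.85-fold lower (4.72 to 7.30), and -1.19 on the adjusted log2 scale. Micall2, which binds Rab8 and Rab13, was 2.98-fold higher (2.77 to 3.22), and 0.51 on the adjusted log2 scale.

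Over all 139 measured regulators and effectors, 24 (17.3%) were at least 2-fold higher and 23 (16.5%) lower, close to the 18.7% and 20.8% of all measured genes, with a median log2 ratio of 0.30. After adjustment 14 (10.1%) were higher and 7 (5.04%) lower, against 11.7% and 8.73% of all measured genes. The Rab genes had 10% and 2.5% at least 2-fold higher and lower before adjustment.

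**Figure D5:**
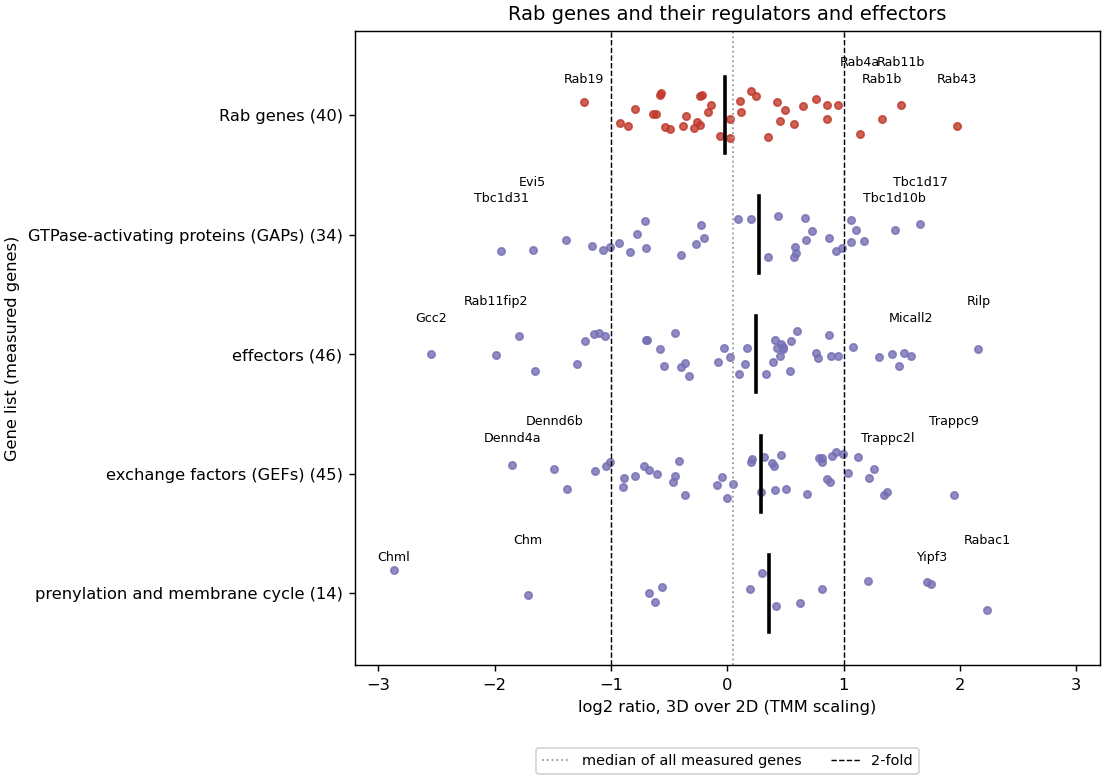
Log2 ratio of the 3D over the 2D library under TMM scaling for the measured Rab genes and for 4 lists of their regulators and effectors, a point per gene, with the list median as a black bar. Dashed lines mark 2-fold and the dotted line the median of all measured genes, 0.05; points of the 4 lists reach from -2.87 for Chml to 2.23 for Rabac1, those of the Rab genes from -1.23 for Rab19 to 1.97 for Rab43.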

How the data were processed

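Per the labels' protocols, TRIzol was used to extract total RNA of RAW264.7 cells, and a stranded Illumina TruSeq kit for polyadenylated RNA gave the libraries. The deposited values are raw counts of reads per Ensembl gene, made by the authors with Trimmomatic, HISAT2 and HTSeq on mm10, per the submitters' processing notes. Nothing on tool versions, strand handling or the gene annotation is given in the sources used here, so counts of paralogues, pseudogenes and overlapping genes are uncertain.

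Of 52550 gene identifiers 52403 (99.7%) matched GENCODE M21, which gave symbols, positions, exon lengths and GC content. Counts were scaled with TMM factors (edgeR 4.0.16, R 4.3.3), 0.813 (3D) and 1.23 (2D). A gene counts as measured from a mean of 1 CPM upward. The ratio is 3D over 2D CPM, and its 95% interval is the exact Clopper-Pearson one, conditional on the summed counts; libraries at 0 counts were set to a floor of 3. A 2-fold ratio counts as a difference of size. Adjustment used natural cubic splines of 4 degrees of freedom for GC content, log2 exon length and log2 mean CPM (patsy 1.0.2), and explained 45.0% of the variance over 11666 genes. Alternatives were DESeq2 1.42.0 size factors, total counts, upper quartile, reference genes, protein-coding genes alone, other filters, a pseudocount of 1 CPM and other thresholds. The code was tested on simulated data. Members and lists were chosen with earlier results of these data known. Every measured Rab gene could be named, and of each regulator list up to 4 genes at least 2-fold higher and up to 4 lower, by the interval bound nearest to 1, plus a few that complete a complex or pair, chosen after their values were seen. Intervals cover counting error only, with no spread between cultures. PCR copies among reads without molecular identifiers cannot be told from separate molecules, so the intervals may be too narrow.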

Additional observations from a re-analysis of the deposited data

How the results depend on the processing

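The numbers of Rab genes at least 2-fold higher and lower, 4 and 1 under TMM scaling, were the same under DESeq2 size factors, upper-quartile scaling and TMM factors from protein-coding genes. Under total counts and under 21 reference genes they were 1 and 10, and the median log2 ratio of -0.02 moved to -0.62 and -0.61. Without a filter they were 5 and 5 with a median of -0.16, over 48 genes. A mean of at least 5 CPM gave 3 and 0, a pseudocount of 1 CPM 4 and 0, and the interval bound 3 and 0, with Rab19 no longer counted in each. Over all genes the shares higher and lower were 17.6% and 25.9% without a filter, and 19.1% and 17.3% at 5 CPM. They were 16.6% and 18.1% with the pseudocount, and 13.1% and 14.4% by the interval bound. Thresholds of 1.5-fold and 4-fold gave 9 and 6, and 0 and 0. After the composition adjustment 5 were higher and 0 lower, 2 of the 5 shared with the 4 before it, and the log2 ratio of Rab1b, 1.33 under TMM, reversed to -0.064.

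Of 139 measured regulators and effectors, 24 were higher and 23 lower. Total counts gave 6 and 46, and reference genes 6 and 45. A 1.5-fold threshold gave 48 and 38, a 4-fold threshold 2 and 2, and the adjustment 14 and 7. Over all measured genes 18.7% were higher and 20.8% lower under TMM scaling at 2-fold. Total counts gave 5.59% and 36.5% of them, and reference genes 5.74% and 36.3%, so the split moved alike over all genes. The 1.5-fold threshold gave 31.7% and 30.4%, the 4-fold threshold 2.23% and 6.67%, and the adjustment 11.7% and 8.73%. No paired analysis was possible because each culture method has 1 library, so leaving out a replicate was not possible either. Depth limits genes near 1 CPM, where 3 counts are worth 0.222 CPM in 3D culture and 0.17 in 2D culture.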
